A study of Gallus gallus with 6 samples.

Results

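HMGA2 and 5 further regulators of fetal growth were followed in the jejunal mucosa of heated breeder hens. They are the chromatin proteins HMGA2 and HMGA1, the RNA-binding protein LIN28B and the messenger RNA-binding proteins IGF2BP1, IGF2BP2 and IGF2BP3, and they were taken from the deposited table by gene symbol. All 6 were found among the 15656 genes that carry a symbol and expression values. The set was chosen by the measured difference of HMGA2, which was among the 7 genes higher in the heat-adapted libraries in the comparison of the 2 groups across all genes (adjusted p = 0.0191, limma with Benjamini-Hochberg adjustment). That difference is therefore given as a description, without a test, and so are the differences of the other 5.

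HMGA2 and HMGA1 bind AT-rich DNA through short motifs called AT-hooks and alter how chromatin is folded around genes. HMGA2 is abundant in embryonic tissue and low in most adult tissue, and its loss gives small body size in the pygmy mouse. In mammals the microRNA let-7, which accumulates as tissues mature, represses HMGA2, LIN28B and IGF2BP messenger RNAs, while LIN28 proteins block the maturation of let-7. The IGF2BP proteins bind messenger RNAs, among them that of the growth factor IGF2, and steer their stability, transport and translation. IGF2BP1 was first known from chicken fibroblasts as ZBP1, which carries beta-actin messenger RNA to the edge of the cell.

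Hens labelled heat-adapted were of the Leuang Hang Kao genotype and those labelled heat-sensitive were SUT breeder hens, both 28 weeks old and both held at 36 °C for 6 h. Each group has 3 libraries, and the RNA of 4 hens was pooled for each library, from 12 hens per group. No unheated hens are among the libraries, and genotype and heat label coincide, so heat adaptation and breed cannot be told apart. The design text of the series speaks of a random split into the groups, although the labels give each group its own genotype. Values are FPKM, fragments scaled for gene length and library size, which allows levels of different genes to be compared per length. Every heat-adapted library had a lower FPKM sum than every heat-sensitive library. Shares of genes higher or lower therefore depend on the scaling, as given in the closing section. All 17 listed enterocyte markers were measured above a mean of 1 FPKM, among them the brush border protein gene VIL1 at 512 to 667 FPKM in heat-adapted and 268 to 455 FPKM in heat-sensitive libraries.

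The read counts of the table sum to 10829957 to 13070796 per library, but their rows do not follow the order of the gene symbols, so no read count can be given for any of the 6 genes. To see whether FPKM and counts describe the same libraries, rows with at least 20 FPKM in all 3 libraries of a group were each set against all rows with at least 200 counts in all 3. For each pair of rows, the log2 ratios of replicate 1 to replicates 2 and 3 were subtracted, FPKM from counts, and the pairs were counted in squares of side 0.01 on the plane of both differences. If the columns hold the same libraries, rows of the same gene should pile up in 1 square. For each column order, the square with the largest excess over the mean of the squares around it was taken. The excess is given in SD, here the square root of that mean. As the largest of many squares, it is raised in any column order. In the heat-sensitive columns it was 34.7 SD in the labelled column order, and 11.4 to 13.4 SD in the other column orders. In the heat-adapted columns this excess was 11.1 SD in the labelled order and 8.39 to 11.6 SD in the others. The labelled order thus did not stand out in the heat-adapted columns, as it did in the heat-sensitive columns. The heat-adapted values below are those of the FPKM columns, and which of the 2 sets of columns matches the labelled libraries was not tested.

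HMGA2 was at 2.91, 2.22 and 2.45 FPKM in the heat-adapted libraries, against 0.17, 0.3 and 0.15 FPKM in the heat-sensitive libraries. Every heat-adapted library was above every heat-sensitive one, and the lowest heat-adapted value was 7.4 times the highest heat-sensitive value. The means were 2.53 ± 0.351 and 0.207 ± 0.0814 FPKM (SD, n = 3 each), a ratio of 12.2. Both ratios divide by heat-sensitive values near the floor of a table rounded to 2 decimals, for which no read count is known. On the log2(FPKM + 1) scale, which shrinks differences of low genes, the difference was 1.54 (SE 0.18). This SE and those below come from limma, which draws on the spread of all tested genes. From the HMGA2 values alone the SE was 0.099. With 0.1 added to FPKM in place of 1 the difference was 3.12, and with 5 added it was 0.53. Within a group, the highest library was 1.31 times the lowest among heat-adapted hens and 2 times the lowest among heat-sensitive hens.

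Among the 15453 genes above 0 in at least 1 library, the heat-adapted mean of HMGA2 lay above that of 35.4% of genes and its heat-sensitive mean above that of 13.2%. Its mean over the 6 libraries was 1.37 FPKM, and the 11587 genes tested were those with a mean of at least 1 FPKM. HMGA2 passed that filter through the heat-adapted libraries alone, since its heat-sensitive mean was 0.207 FPKM. Of the tested genes, 11 had a larger ratio of the heat-adapted to the heat-sensitive mean, genes at 0 in the heat-sensitive libraries included. By the log2(FPKM + 1) difference HMGA2 had rank 24 among the tested genes, largest first. Both places rest on the values that chose the gene. Across all tested genes 11 passed an adjusted p of 0.05 in limma, 7 higher and 4 lower, which is 0.0949% in either direction, 0.0604% higher and 0.0345% lower. Of the 6 genes 3 entered that fit, HMGA2, HMGA1 and IGF2BP2, and nothing is read from the call of HMGA2, which chose the set. Without a single library the HMGA2 difference lay between 1.47 and 1.61, while its adjusted p in limma ran from 0.038 to 0.0747. That p, which chose the gene, was over 0.05 without heat-adapted replicate 1 (adjusted p = 0.0616) or 2 (0.0747) and without heat-sensitive replicate 1 (0.0559), 2 (0.0527) or 3 (0.0538).

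**Figure D1:**
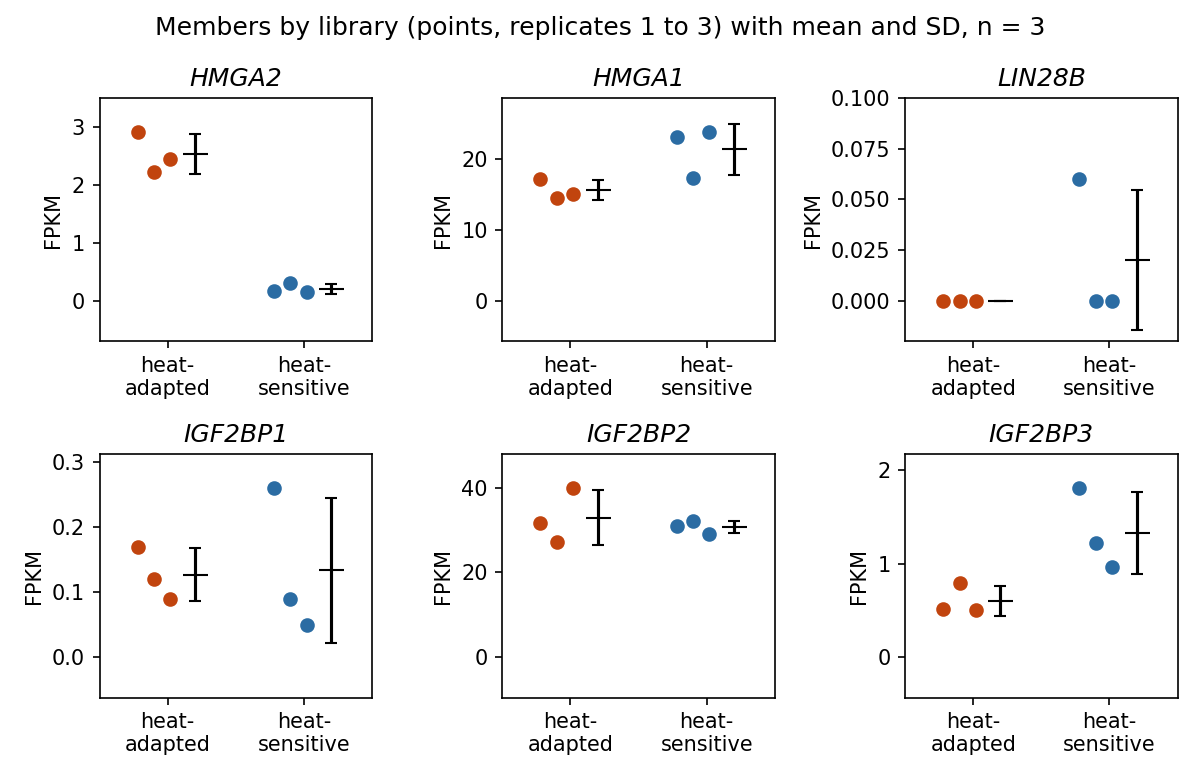
FPKM of each of the 6 genes in each library, heat-adapted on the left and heat-sensitive on the right, each panel on its own scale, with the mean and SD of 3 libraries. HMGA2 lies at 2.22 to 2.91 FPKM in heat-adapted and 0.15 to 0.3 FPKM in heat-sensitive libraries, IGF2BP3 is lower in all 3 heat-adapted libraries, and the IGF2BP2 groups overlap.

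HMGA1, the close relative of HMGA2, was lower in the heat-adapted libraries. It was at 17.15, 14.42 and 15.09 FPKM in heat-adapted libraries and at 23.04, 17.23 and 23.79 FPKM in heat-sensitive libraries. The groups were apart by a narrow margin, since the highest heat-adapted value was 0.995 times the lowest heat-sensitive one, that of replicate 2. Means were 15.6 ± 1.42 and 21.4 ± 3.59 FPKM (SD, n = 3 each), with a log2 difference of -0.42 (SE 0.16). After rescaling FPKM to TPM (a fixed sum per library) the HMGA1 groups overlapped, with 21.3, 18.5 and 17.1 TPM against 25.7, 19.3 and 26.6 TPM, and the log2 difference was -0.31.

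The share of HMGA2 in the HMGA pair rests on the values that chose the set and is a description. HMGA2 gave 14.5%, 13.3% and 14.0% of the summed FPKM of HMGA1 and HMGA2 in the heat-adapted libraries, against 0.732%, 1.71% and 0.627% in the heat-sensitive libraries. A share within a library does not depend on how libraries are scaled. The sum of the pair was 18.1 ± 1.77 FPKM in heat-adapted and 21.6 ± 3.51 FPKM in heat-sensitive libraries (SD, n = 3 each), and the groups overlapped in it. HMGA1 was the more abundant of the pair in all 6 libraries.

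LIN28B, which binds let-7 precursors and keeps them from maturing, was listed at 0 in 5 of the 6 libraries. The remaining value was 0.06 FPKM in heat-sensitive replicate 1, in a table rounded to 2 decimals. Its paralogue LIN28A was at 0.04, 0.06 and 0.06 FPKM in heat-adapted and at 0, 0.07 and 0.07 FPKM in heat-sensitive libraries. Neither gene reached 0.1 FPKM in any library, and no difference could be read at these levels.

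IGF2BP2, the IGF2BP protein that stays on in adult tissue and whose gene is an HMGA2 target in mouse muscle precursors, was the most abundant of the 6 genes in every library. It was at 31.6, 27.2 and 39.95 FPKM in heat-adapted libraries and at 30.91, 32.06 and 29.2 FPKM in heat-sensitive libraries. The heat-adapted values lay on both sides of the heat-sensitive ones, and their spread was wider, with means of 32.9 ± 6.48 and 30.7 ± 1.44 FPKM (SD, n = 3 each). The log2 difference of 0.08 (SE 0.16) was smaller than its error, and its sign turned (-0.06) without heat-adapted replicate 3.

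IGF2BP3, the family member most tied to fetal tissue and tumours, was lower in the heat-adapted libraries. Its values were 0.52, 0.79 and 0.5 FPKM in heat-adapted libraries and 1.81, 1.22 and 0.96 FPKM in heat-sensitive libraries. All 3 heat-adapted libraries were below all 3 heat-sensitive ones, with means of 0.603 ± 0.162 and 1.33 ± 0.436 FPKM (SD, n = 3 each), so the heat-adapted mean was 0.454 times the other. The log2(FPKM + 1) difference was -0.53, and the groups stayed apart after TPM scaling. With a mean of 0.967 FPKM over the 6 libraries, IGF2BP3 lay just under the filter and was not among the genes tested.

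IGF2BP1 was near the floor of the table and showed no separation. It was at 0.17, 0.12 and 0.09 FPKM in heat-adapted libraries, against 0.26, 0.09 and 0.05 FPKM in heat-sensitive libraries. The heat-sensitive values spanned the whole heat-adapted range. The log2 difference of -0.005 had no stable sign: it was 0.01 after TPM scaling, and 0.07 without heat-sensitive replicate 1, the highest library.

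**Figure D2:**
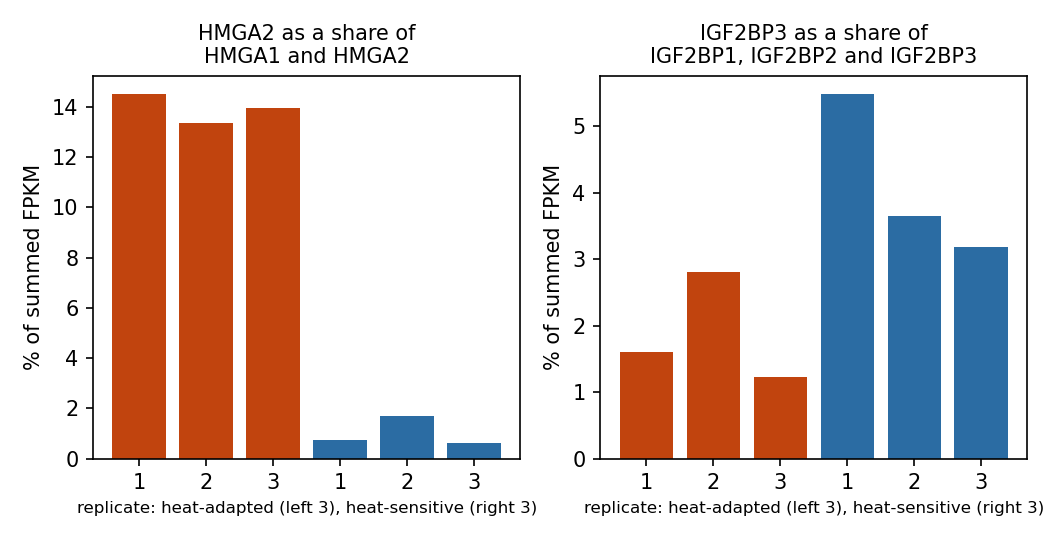
HMGA2 as a percent of the summed FPKM of HMGA1 and HMGA2 (left panel) and IGF2BP3 as a percent of the summed FPKM of IGF2BP1, IGF2BP2 and IGF2BP3 (right panel), one bar per library. The HMGA2 share is 13.3% to 14.5% in heat-adapted and 0.627% to 1.71% in heat-sensitive libraries, and the IGF2BP3 share is 1.23% to 2.81% and 3.18% to 5.49%.

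IGF2BP2 made up 97.9%, 96.8% and 98.5% of the summed IGF2BP level in heat-adapted libraries and 93.7%, 96.1% and 96.7% in heat-sensitive libraries. IGF2BP3 filled most of the rest, with 1.61%, 2.81% and 1.23% in heat-adapted libraries, against 5.49%, 3.66% and 3.18% in heat-sensitive libraries. The IGF2BP3 shares did not overlap between the groups. The family sum did overlap, at 33.6 ± 6.33 and 32.2 ± 1.72 FPKM in heat-adapted and heat-sensitive libraries (SD, n = 3 each).

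The order of the leading genes by FPKM was the same in all heat-adapted libraries: IGF2BP2, HMGA1, HMGA2 and IGF2BP3, from high to low, followed by IGF2BP1 and LIN28B, between which no order is read at these levels. In the heat-sensitive libraries IGF2BP3 took the place above HMGA2, and in heat-sensitive replicate 1 IGF2BP1 was above HMGA2 too. The level of HMGA2 was 5.60, 2.81 and 4.90 times that of IGF2BP3 in heat-adapted libraries, against 0.0939, 0.246 and 0.156 times in heat-sensitive libraries. No library of one group reached the ratio of any library of the other. That follows from the HMGA2 values that chose the set and from IGF2BP3, whose groups did not overlap either. The ratio is a description and no further separation of the groups.

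Of the 6 genes, 3 had groups that did not overlap, HMGA2 higher and HMGA1 and IGF2BP3 lower in the heat-adapted libraries. Among all 15453 genes above 0 in at least 1 library, the groups did not overlap in 19.5%, with 7.53% higher and 11.9% lower; among the tested genes they did not overlap in 21.9%. Nothing is read from the count of 3, because the set was assembled around a gene that separates the groups. The log2 differences of the 6 genes lay on both sides of 0.

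**Figure D3:**
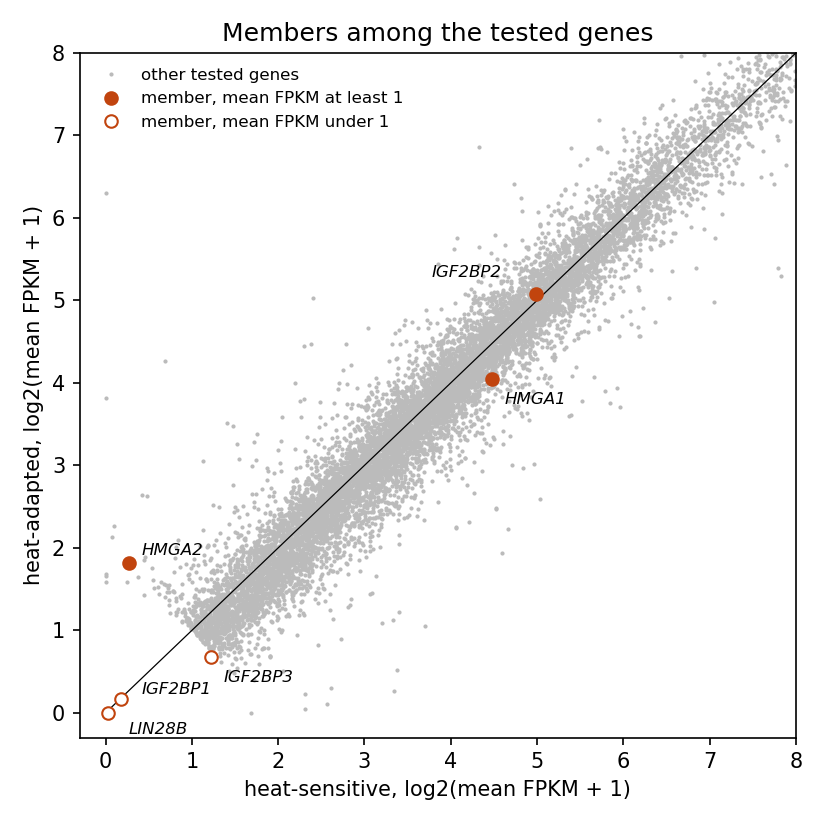
Each tested gene by its mean level in heat-sensitive (horizontal) and heat-adapted (vertical) libraries, both as log2(mean FPKM + 1), up to 8 on both axes. The line marks equal levels, HMGA2 lies above it at a ratio of means of 12.2, IGF2BP2 lies on it, and HMGA1 and IGF2BP3 lie below it, IGF2BP3 as an open circle because its mean of 0.967 FPKM is under the filter.

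The other genes around let-7 were described from lists, which like those below were chosen with earlier results of these data known. Of 14 tested genes listed for the making, use or decay of let-7, TRIM71 included, 7 were higher and 7 lower in heat-adapted hens. The median log2 difference was 0.01, against -0.06 for all tested genes. None passed in limma after adjustment, and 0 had an unadjusted p below 0.05, which 18.0% of all tested genes reached. TRIM71, a let-7 target that holds embryonic cells in an early state, was at 2.76, 2.3 and 1.84 FPKM in heat-adapted and 1.47, 1.81 and 1.08 FPKM in heat-sensitive libraries (log2 difference 0.43, SE 0.20, adjusted p = 0.30). DIS3L2, the nuclease that destroys uridine-tailed let-7 precursors, was at 9.61, 8.58 and 9.54 FPKM in heat-adapted and 8.35, 6.4 and 7.13 FPKM in heat-sensitive libraries (0.31, SE 0.15, adjusted p = 0.32). The groups did not overlap in these 2 genes, where 9.00% of tested genes did not overlap with higher heat-adapted values. ZCCHC6, which adds uridine tails, and the Argonaute gene AGO4 had log2 differences of 0.25 and -0.16 with overlapping groups.

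Other genes known as let-7 targets in mammals were mostly lower in the heat-adapted libraries. The direction of HMGA2, itself such a target, was fixed when the gene was chosen. TRIM71, a target with higher heat-adapted values, was counted with the let-7 genes above and not here. Of 19 tested, 3 were higher and 16 lower, with a median log2 difference of -0.23, against 41.7% of all tested genes higher. None passed in limma after adjustment, and 3 had an unadjusted p below 0.05, all lower, where 10.9% of all tested genes were lower at that threshold. The median was -0.12 without heat-adapted replicate 1. The 3 were the nucleotide reductase gene RRM2, at 11.8 ± 3.63 and 26.3 ± 1.09 FPKM in heat-adapted and heat-sensitive libraries (adjusted p = 0.0701), the replication helicase gene DNA2, at 1.57 ± 0.395 and 3.20 ± 0.86 FPKM (0.18), and the cyclin gene CCND1, at 8.28 ± 1.51 and 12.9 ± 2.25 FPKM (0.18; SD, n = 3 each). RRM2 also stands on the list of cycling cell markers. The cell cycle factor gene E2F5 had a log2 difference of -0.23 with overlapping groups.

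Genes of the insulin-like growth factor axis, of which IGF2 is also on the list of IGF2BP cargo below, went in both directions. Of 16 tested, 6 were higher and 10 lower (median log2 difference -0.11), 0 passed in limma after adjustment, and 1 higher and 1 lower had an unadjusted p below 0.05, where 7.13% of all tested genes were higher and 10.9% lower at that threshold. IGF2, the fetal growth factor, was at 1.83, 2.2 and 3.51 FPKM in heat-adapted and 4.51, 4.43 and 3 FPKM in heat-sensitive libraries, and the groups overlapped (log2 difference -0.52, SE 0.23, adjusted p = 0.28). IGFBP7, a secreted protein of vessels and stroma, was at 95.7, 111 and 126 FPKM in heat-adapted and 201, 235 and 153 FPKM in heat-sensitive libraries (-0.81, SE 0.19, adjusted p = 0.11). STC2, which inhibits the protease that frees insulin-like growth factors from their binding proteins, was at 2.3, 3.19 and 3.59 FPKM in heat-adapted and 2.09, 1.25 and 0.42 FPKM in heat-sensitive libraries (0.89, SE 0.29, adjusted p = 0.18). The binding protein gene IGFBP4 had a log2 difference of -0.62 with overlapping groups. The sign of the list's median turned with quantile normalization, without heat-adapted replicate 1 and without heat-sensitive replicate 2.

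Most other high mobility group proteins, which bind nucleosomes or bent DNA through other domains, were lower in the heat-adapted libraries. The direction of HMGA2 was fixed when the gene was chosen, so the list is not set against it. Of 13 tested, 2 were higher and 11 lower in heat-adapted hens (median log2 difference -0.24), 0 passed in limma after adjustment, and 4 had an unadjusted p below 0.05, all lower. Of all tested genes, 41.7% were higher, and 10.9% were lower at an unadjusted p below 0.05. HMGN1, a nucleosome-binding protein, was at 149, 173 and 174 FPKM in heat-adapted and 301, 286 and 279 FPKM in heat-sensitive libraries (-0.80, SE 0.14, adjusted p = 0.0701). HMGN4 and HMGN5 had log2 differences of -0.82 (adjusted p = 0.12) and -0.50 (0.15). HMGB2, the HMGB protein of dividing cells, was at 76.7 ± 25.3 and 122 ± 11.1 FPKM in heat-adapted and heat-sensitive libraries (-0.71, SE 0.22, adjusted p = 0.17; SD, n = 3 each). The list's median lay between -0.35 and -0.09 over the alternatives tried, nearest to 0 without heat-adapted replicate 1.

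Of 20 tested proteins that share messenger RNA granules or the reading of methylated messenger RNA with the IGF2BP proteins, 16 were lower (median log2 difference -0.16). None passed in limma after adjustment, 4 had an unadjusted p below 0.05, and 7 did not overlap, all of these lower. Of all tested genes, 10.9% were lower at an unadjusted p below 0.05 and 12.9% did not overlap with lower heat-adapted values. The median was -0.08 without heat-sensitive replicate 1. The cold shock domain protein gene YBX1 was at 752 ± 141 and 1226 ± 187 FPKM in heat-adapted and heat-sensitive libraries (-0.71, SE 0.20, adjusted p = 0.15; SD, n = 3 each). FXR1, a relative of the fragile X protein, WTAP, a part of the messenger RNA methylase, and the nuclear RNA-binding protein gene HNRNPU had log2 differences of -0.51, -0.36 and -0.41, with adjusted p-values in limma of 0.19 to 0.24. Among 16 tested messenger RNAs known as IGF2BP cargo in mammals, 10 were lower and 6 higher (median -0.17), 0 passed in limma after adjustment, and 3 had an unadjusted p below 0.05, all lower, against 10.9% of all tested genes. The cargo median was also -0.08 without heat-sensitive replicate 1. The 3 were CCND1, the matrix protein gene CTGF (-0.84, adjusted p = 0.22) and the hyaluronan receptor gene CD44 (-0.50, adjusted p = 0.25).

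Of 13 tested genes of fetal and regenerating gut, 4 were higher and 9 lower in heat-adapted hens (median log2 difference -0.17), 0 passed in limma after adjustment, and 2 had an unadjusted p below 0.05, both lower, a share close to the 10.9% of all tested genes. The median was -0.03 without heat-sensitive replicate 2, -0.09 without heat-adapted replicate 1 and -0.02 with quantile normalization. The 2 genes were CTGF and TEAD4, a partner of the growth regulator YAP, at 5.57 ± 1.75 and 9.69 ± 3.97 FPKM in heat-adapted and heat-sensitive libraries (adjusted p = 0.25; SD, n = 3 each). The RNA-binding protein gene MSI2 had a log2 difference of -0.26 with overlapping groups. The fetal serum protein gene AFP stayed at 0.04 to 0.11 FPKM in heat-adapted and 0.04 to 0.07 FPKM in heat-sensitive libraries. SOX11, a factor of embryonic progenitors, was at 0 to 0.13 FPKM in heat-adapted and 0 to 0.09 FPKM in heat-sensitive libraries. The groups overlapped in both genes. Of the 6 genes of the list under the filter, SPP1, the gene of the secreted matrix protein osteopontin, was the one whose groups did not overlap, at 0.33, 0.42 and 0.27 FPKM in heat-adapted and 1.66, 1.49 and 1.19 FPKM in heat-sensitive libraries. It was named after its values were seen. Among all 15453 genes above 0 in at least 1 library, 11.9% did not overlap with lower heat-adapted values, so nothing is read from this gene.

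**Figure D4:**
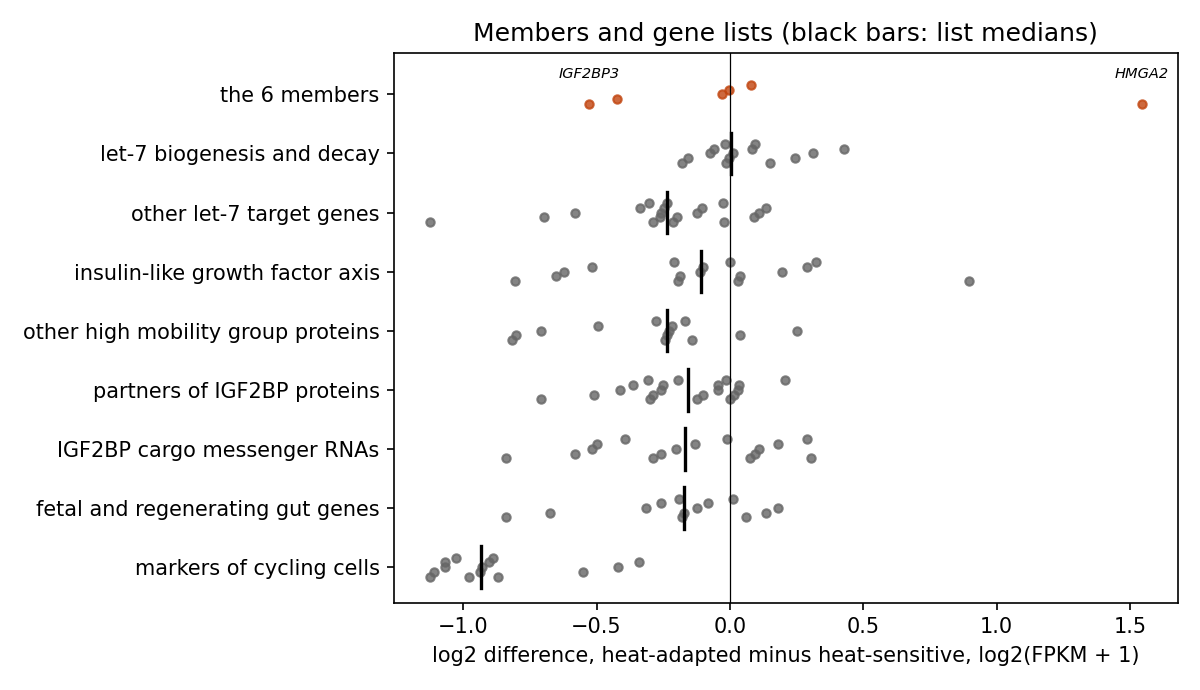
Difference on the log2(FPKM + 1) scale, as heat-adapted minus heat-sensitive, of the 6 genes (top line) and of the tested genes of 7 lists and of the cycling cell markers, one point per gene, with a black bar at each list's median. HMGA2 lies at 1.54, the medians of the 7 lists lie between -0.24 and 0.01, and that of the cycling cell markers lies at -0.93.

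Markers of cycling cells were lower in the heat-adapted libraries, as HMGA1 and HMGB2 were. All 14 measured markers were above 0 and lower (median log2 difference -0.93), 13 with an unadjusted p below 0.05 against 10.9% of all tested genes, and 0 passed in limma after adjustment. Their summed level was 176 to 251 FPKM in heat-adapted and 375 to 432 FPKM in heat-sensitive libraries. CDK1, the kinase that starts mitosis, was at 54.5, 60.8 and 80.7 FPKM in heat-adapted and 138, 158 and 126 FPKM in heat-sensitive libraries (adjusted p = 0.0589). In bulk mucosa, fewer cells of a type and less RNA per cell cannot be told apart. The part of cycling cells in the values of HMGA1 and the lists above was not tested.

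Markers of 2 other cell types also had summed levels that did not overlap. Of all tested genes, 41.7% were higher, and 10.9% were lower at an unadjusted p below 0.05. Smooth muscle markers summed to 245 to 581 FPKM in heat-adapted and 615 to 1216 FPKM in heat-sensitive libraries, with 10 of 10 lower, all above 0. Of these 10 markers, 6 had an unadjusted p below 0.05, and 0 passed in limma after adjustment. B and plasma cell markers summed to 13425 to 20680 FPKM in heat-adapted and 28252 to 31721 FPKM in heat-sensitive libraries, with 11 of 11 tested lower and none of the 12 measured at 0 throughout. Most of that sum was IGLL1 at 11081 to 18007 FPKM in heat-adapted and 24487 to 27131 FPKM in heat-sensitive libraries. Of the 11, 5 did not overlap between the groups: BCL6, JCHAIN, IGLL1, POU2AF1 and IRF4. Overlap was seen in PAX5, CD79B, BTK, TNFRSF13C, MZB1 and XBP1. Of all tested genes, 12.9% did not overlap with lower heat-adapted values. Among the 11, 5 had an unadjusted p below 0.05, and 0 passed in limma after adjustment. Summed levels of enterocyte, goblet, enteroendocrine, stem and progenitor, fibroblast, endothelial, T and natural killer cell and macrophage markers overlapped between the groups. Among tested markers, 13 of 13 for fibroblasts, 8 of 8 for endothelium and 11 of 12 for T and natural killer cells were lower. Lower too were 10 of 12 stem and progenitor, 7 of 9 macrophage, 5 of 9 enteroendocrine and 2 of 6 goblet cell markers. In these 7 lists 0 passed in limma after adjustment. Of 17 enterocyte markers 15 were higher (median log2 difference 0.42), and 0 passed in limma after adjustment, with 6 higher at an unadjusted p below 0.05, against 7.13% of all tested genes. The enterocyte median was 0.21 without heat-sensitive replicate 2. The part of cell composition in the IGF2BP3 and HMGA2 values was not tested.

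The genes beside HMGA2 on its chromosome were measured too, and none that was tested passed. Gene order was read from RefSeq's gene table for assembly GRCg7b, a different build from that of the deposited files, so no coordinates are given. No annotated gene there overlaps HMGA2 or any of the other 5. Of the 5 protein-coding genes on each side, all 10 were in the table and 9 were tested, with log2 differences between -0.55 and 0.20, and 0 passed in limma after adjustment. MSRB3, a methionine sulfoxide reductase gene next to HMGA2 on one side, was at 4.07, 9.02 and 5.88 FPKM in heat-adapted and 8.95, 10.44 and 8.59 FPKM in heat-sensitive libraries (-0.55, SE 0.24, adjusted p = 0.27). LLPH, next to it on the other side, was at 89.9, 75.5 and 96.9 FPKM in heat-adapted and 113, 97.1 and 113 FPKM in heat-sensitive libraries (-0.30, SE 0.15, adjusted p = 0.32). MSRB3 had an unadjusted p of 0.0472 and was the only one of the 9 below 0.05. DYRK2, a kinase gene farther out on the same stretch in mammals, was on the list of neighbour genes. It was at 25.6, 23.6 and 22.4 FPKM in heat-adapted and 16.7, 15.8 and 19.2 FPKM in heat-sensitive libraries (0.45, adjusted p = 0.17 in limma). The unadjusted p of DYRK2 in limma was 0.0091, and its groups did not overlap. Of all tested genes, 9.00% did not overlap with higher heat-adapted values.

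**Figure D5:**
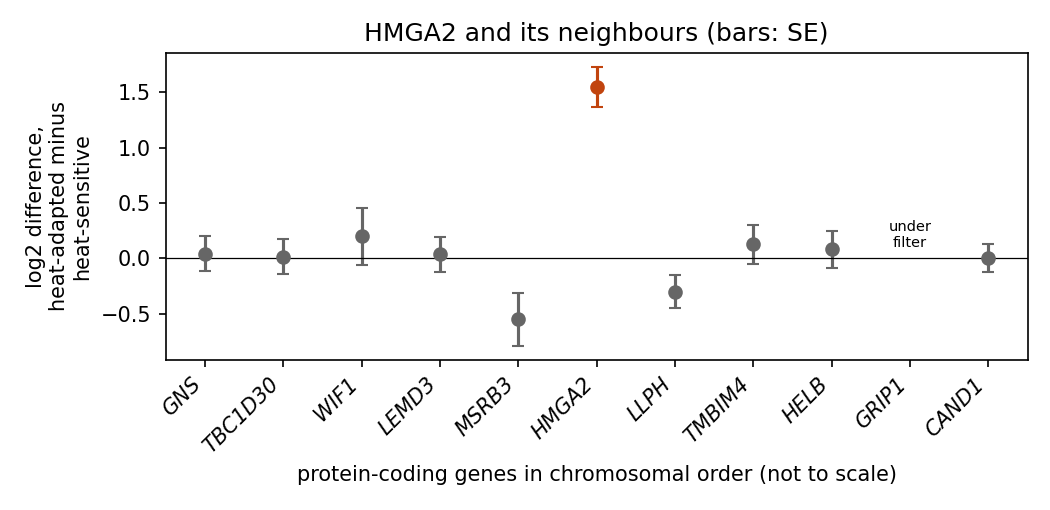
Difference on the log2(FPKM + 1) scale, as heat-adapted minus heat-sensitive, of HMGA2 and the 5 protein-coding genes on each side in the GRCg7b gene order, evenly spaced, with bars for the SE from limma. HMGA2 is at 1.54 and its tested neighbours lie between -0.55 and 0.20, and GRIP1 was under the filter.

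The 5 genes whose profile over the 6 libraries was most like that of HMGA2 were C5H15orf41, C5H14orf159, BLOC1S4, HAGHL and MTAP, with Pearson's r of 0.992, 0.991, 0.989, 0.987 and 0.984 on the log2(FPKM + 1) scale. The 6 libraries fall into 2 groups, so such an r mainly says that a gene separates the groups with little spread inside them, and it is given without a test. All 5 were more abundant than HMGA2 and higher in all heat-adapted libraries than in any heat-sensitive one. That separation follows from their choice by likeness to HMGA2, so nothing is read from it. Of all tested genes, 9.00% did not overlap with higher heat-adapted values. HAGHL, related to the detoxifying enzyme glyoxalase II, was at 91.6, 82.0 and 78.8 FPKM in heat-adapted and 26.0, 23.3 and 27.5 FPKM in heat-sensitive libraries (log2 difference 1.68, SE 0.13). MTAP, the enzyme that salvages methylthioadenosine, had the least spread, at 30.0 ± 0.159 and 23.0 ± 0.304 FPKM in heat-adapted and heat-sensitive libraries (SD, n = 3 each), with a log2 difference of 0.37.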

How the data were processed

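RNA-seq of pooled jejunal mucosa was analysed for 3 heat-adapted and 3 heat-sensitive libraries. The submitters' processing notes name, for build GRCg6a, HTSeq 0.6.1, HISAT2 2.0.1, DESeq2 and cutadapt 1.9.1. Settings, strand and the handling of shared reads: not given in the sources used here. FPKM values were deposited by the authors, rounded to 2 decimals, and sum to 779730 to 898136 per library. Each heat-adapted sum was lower than each heat-sensitive sum, so TPM raised heat-adapted values by larger factors. HMGA1 went from 14.42 FPKM to 18.5 TPM in heat-adapted replicate 2, and from 23.04 FPKM to 25.7 TPM in heat-sensitive replicate 1. Read counts stand in the table per the file headers, with no normalization named; these deposited values were taken as estimated counts, since 13.2% to 13.7% are not whole, and used only for totals and for the comparison of row order (Spearman's rho of -0.0048 between mean FPKM and mean count of a row). The count test planned for ordered counts was therefore not used.

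In 19 rows the symbol had become a date and these were left out. Genes with a mean of at least 1 FPKM (11587) entered limma 3.58.1 (R 4.3.3) as log2(FPKM + 1), fitted with a variance trend, robust estimation, no block, and Benjamini-Hochberg adjustment over all of them, 2-sided, at 0.05. Figures were drawn with matplotlib 3.10.9. The fit was tested on simulated data. Members and lists were chosen with earlier results of these data known. Named from each list are the up to 4 genes of smallest p; of the high mobility group and neighbour lists any tested gene may be named. Values of some listed genes are not reported here. LIN28A, AFP and SOX11 were named beyond this for their role. SPP1, IGLL1 and the other B and plasma cell genes were named after their values were seen. Likeness is the highest Pearson's r with HMGA2. The libraries are pools of 4 hens, so p-values measure the spread between pools. Alternatives were 9 settings and leaving out each library in turn.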

Additional observations from a re-analysis of the deposited data

How the results depend on the processing

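The HMGA2 log2 difference, whose direction was fixed when the gene was chosen, was 3.12 with a pseudocount of 0.1, 0.53 with a pseudocount of 5 and 1.72 with TPM, and 1.47 to 1.61 when single libraries were left out. A filter at a mean of 5 FPKM left it out of the fit. HMGA1 was lower in the heat-adapted libraries in all 15 alternatives (-0.56 to -0.31) and IGF2BP3 in all 14 that gave a value (-1.0 to -0.17). These are directions of the difference only, and the HMGA1 groups overlapped both with TPM and with median-of-ratios factors. IGF2BP2 turned sign in 1 of 15 and IGF2BP1 in 5 of 14. The number of genes called was 17 with a pseudocount of 0.1 (8 lower), 7 without a filter (2 lower), 7 at a mean of at least 5 FPKM (1 lower), 38 with TPM (24 higher, 14 lower) and 20 with median-of-ratios factors (11 higher, 9 lower), against 11. Without single libraries it ran from 6 (without heat-adapted replicate 2) to 64 (without heat-adapted replicate 3), with 4 to 25 higher and 2 to 39 lower. TPM moved the median log2 difference of all tested genes to 0.05, against -0.06, and genes at an unadjusted p below 0.05 to 1357 higher and 720 lower, against 826 and 1260; with median-of-ratios factors they were 1129 and 993. With TPM the medians of the let-7 target, high mobility group, IGF2BP partner, cargo and fetal gut lists were closer to 0 (-0.12 to -0.04). They moved upward together with the median of all tested genes. TPM divides each value by the FPKM sum of its library. These sums were lower in the heat-adapted libraries, so TPM shifts all differences upward. Why the sums differ was not tested.

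Replicate numbers are shared by the groups, but same-numbered libraries did not deviate together (r of -0.161, 0.110 and -0.191 over genes), and heat-adapted replicate 1 correlated best with heat-sensitive replicate 3 (r = 0.339). With the replicate number as a block, 46 genes were called, 22 higher and 24 lower. The HMGA2 difference was 1.54, which such a block cannot change, as each number occurs once per group. Its adjusted p in limma, the kind of value that chose the gene, was 0.0352 with the block, against 0.0191. Read depth behind single genes is not known, so levels under about 0.1 FPKM carry no order.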
